A study of Mus musculus with 4 samples.

Results

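The genes described here are the C-type lectin receptor genes of the mouse lung, chosen as every gene symbol made of Clec and a digit in both deposited tables, with Clec14a left out. They number 30 of 23284 genes. The rule used names only, and the set also holds secreted proteins and an intracellular protein that carry the name. RNA came from whole lungs of C57BL/6 mice and was sequenced in 4 libraries, 1 per group. The groups were Il22 knockout mice (genotype IL22-/-) that had been sensitized and then challenged with the allergen HDM (house dust mite), wild-type mice given the same HDM course, wild-type mice given recombinant IL-22 into the trachea, and wild-type mice given PBS into the trachea. HDM lungs were taken 48 h after the last dose and the other lungs 24 h after theirs. Whether each library holds RNA of 1 animal or of several is not in the labels, which also give no age. With 1 library per group no difference below has a replicate check, and none was tested.

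C-type lectin receptors are membrane proteins of mostly myeloid cells that bind sugars, lipids or the debris of dead cells through a shared fold. Activating receptors signal through a tail motif of their own or through the adaptor FcRγ to the kinase SYK and the adaptor CARD9, which switch on cytokine and lipid mediator genes, while inhibitory receptors carry a tail motif that recruits the phosphatases SHP-1 and SHP-2. Dectin-2, a member of the group, is known to bind glycans of house dust mite and to prompt leukotriene release from dendritic cells. The gene family also holds ligands of natural killer (NK) cell receptors and receptors of platelets and endothelium.

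Values are FPKM, a level corrected for both the length of a transcript and the depth of a library, so levels can be compared between genes. The low values moved in steps of whole reads, which put the libraries at an estimated 27.3 M reads for knockout HDM, 24.95 M for wild-type HDM, 28.9 M for IL-22 and 19.97 M for PBS. Il22 was listed at 0 FPKM in the knockout HDM library, against 0.362 in the wild-type HDM library, and also at 0 in the IL-22 and PBS libraries. The lung markers Scgb1a1, of club cells, and Sftpc, of alveolar type II cells, were high in every library, with Sftpc between 30749 and 37820 FPKM. A gene counts as measured in a pair of libraries at a mean FPKM of at least 1, and is called higher or lower where the difference of log2(FPKM + 1) is at least 1 in size. Ratios have exact 95% intervals from estimated reads, which cover counting error only.

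In HDM-treated lungs, the genes of Dectin-1, Dectin-2, MGL1 and the DCIR genes Clec4a3 and Clec4a2, receptors of macrophages and dendritic cells, were lower in the Il22 knockout library than in wild type. The endothelial receptor gene Clec1a was higher. Of 18 measured members 5 were lower and 1 higher, where 2.42% of all 13285 measured genes were lower, 0.549% higher and 2.97% called in all. The median difference of the measured members was -0.25, against 0.03 over all genes. The 5 lower genes were among the 12 measured genes of the activating, the DCIR and inhibitory-type, and the uptake groups. These groups are called myeloid here, although Clec4g among them is better known from endothelium. The median of the 12 genes was -0.90, with 9 below 0 and 3 above, namely Clec9a, Clec4d and Clec12b. The summed level of the 17 genes of these groups was 75.1 FPKM in the knockout and 182 FPKM in wild type. In the other 6 measured members the median was 0.05. Fewer cells of a type and less RNA per cell cannot be told apart in whole-lung RNA.

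**Figure D1:**
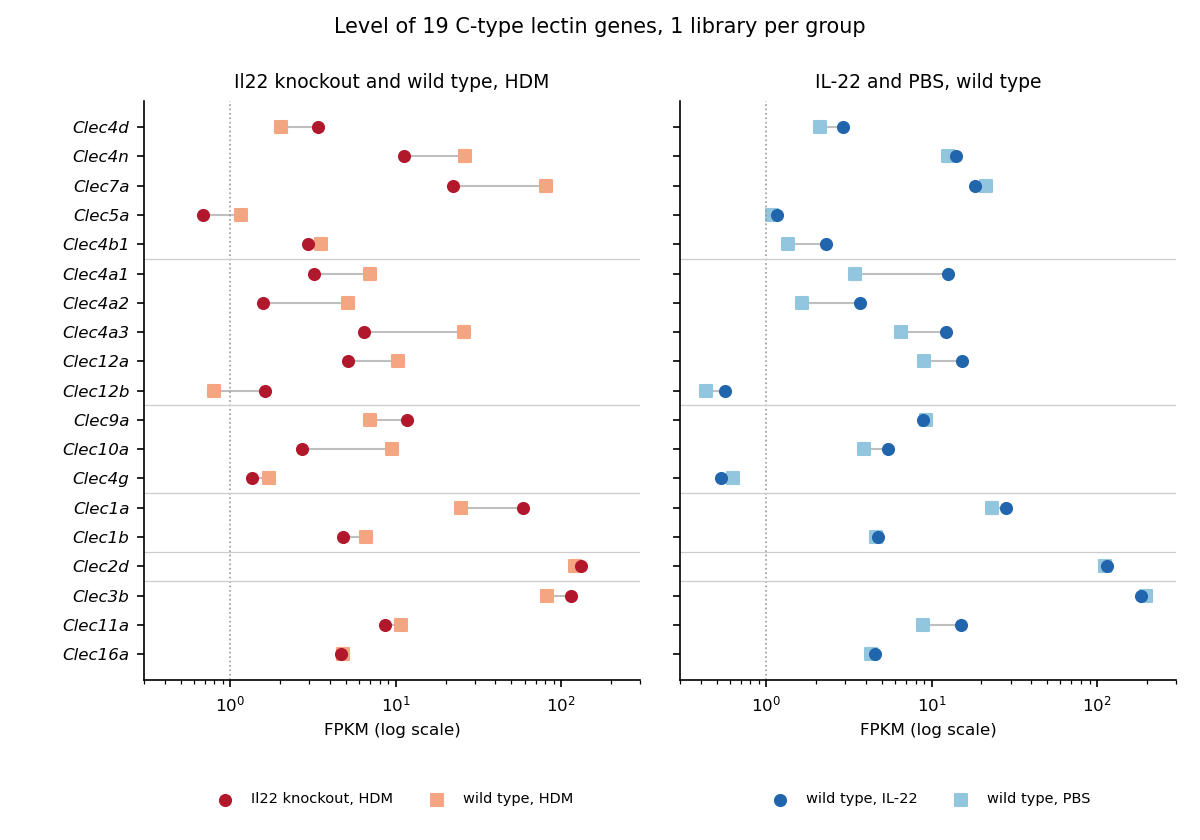
FPKM on a log axis of the 19 members with a mean of at least 1 in either pair, ordered by role, with 1 point per library and the HDM pair left and the IL-22 and PBS pair right. Clec7a stands at 22.2 in the knockout and 81.1 in wild type after HDM, while Clec1a stands at 58.8 and 24.8.

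Among the activating receptors of myeloid cells, Clec7a, which encodes Dectin-1, the receptor of fungal and plant β-glucan, had 22.2 FPKM in the knockout HDM library and 81.1 FPKM in the wild-type HDM library, with 18.2 FPKM after IL-22 and 21.3 FPKM after PBS. Set side by side, the wild-type HDM value was the only 1 of the 4 far from the others. The IL-22 and PBS values come from the other table, which may have been scaled separately. The HDM difference was -1.82, a level 3.65-fold lower in the knockout (95% counting interval 3.43 to 3.89), and it ranked 79th from the lowest of all measured genes. Clec4n, which encodes Dectin-2, had 11.1 FPKM in the knockout HDM library, 26.2 FPKM in the wild-type HDM library, 14.0 FPKM after IL-22 and 12.5 FPKM after PBS. Its HDM difference was -1.17, a level 2.36-fold lower (2.04 to 2.72). As for Clec7a, the high value was that of wild type after HDM.

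None of the other activating receptors was called. Clec4d, the receptor MCL that pairs with Mincle, had 3.40 FPKM in the knockout and 2.02 FPKM in wild type after HDM, a difference of 0.54 that misses the size rule, with a ratio of 1.68 (1.22 to 2.39). Clec4e, which encodes Mincle, a receptor of mycobacterial cord lipid, lay under the filter at 0.741 FPKM in the knockout and 0.897 FPKM in wild type, about 47 and 52 reads. The level of Clec4n relative to Clec4d was 3.28 in the knockout and 13.0 in wild type. Clec4b1, an activating receptor of dendritic cells also called DCAR, had 2.96 FPKM against 3.52 FPKM, a ratio of 0.840 whose interval of 0.519 to 1.31 spans 1. Clec5a, the receptor MDL-1 that signals through DAP12, was also low, with 0.681 FPKM in the knockout and 1.16 FPKM in wild type, about 12 and 19 reads. Clec4b2 had about 3 and 7 reads in the same libraries and was listed at 0 after IL-22 and after PBS.

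The group of the DCIR family and of inhibitory-type receptors had 5 measured members in the HDM pair, with 2 lower, none higher and a median of -0.92. Tail motifs were not checked, so a place in this group does not mean that a gene encodes an inhibitory receptor. Clec4a3 (Dcir3) had 6.43 FPKM in the knockout HDM library and 25.8 FPKM in the wild-type HDM library, beside 12.2 FPKM after IL-22 and 6.48 FPKM after PBS. Its HDM difference of -1.85 was the most negative of all members, a level 4.01-fold lower (3.39 to 4.80). Clec4a2, the founding inhibitory receptor DCIR, had 1.56 FPKM in the knockout and 5.17 FPKM in wild type, a difference of -1.27. Clec4a1 (Dcir4) had 3.21 FPKM and 6.99 FPKM, and Clec12a, the uric acid crystal receptor MICL, had 5.16 FPKM and 10.3 FPKM. Their differences of -0.92 and -0.88 stand just outside the size rule, while those of Clec4n and Clec1a, at -1.17 and 1.21, stand just inside. With a pseudocount of 0.1 Clec4a1 passed the rule at -1.10. Clec12b, a receptor of the inhibitory type, lay on the other side with a difference of 0.54. It had 1.61 FPKM in the knockout and 0.796 FPKM in wild type, about 58 and 26 reads. Clec4a4 (Dcir2), known from a subset of conventional dendritic cells, had at most about 4 reads in any library.

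Promoter sequences are shown for the called members that have an entry in the RefSeq promoter table (GRCm38.p6), to let the DCIR genes be compared with each other and with Dectin-1. Each run is the 250 bases before a listed start, 5′ to 3′ on the gene's strand. Clec7a and Clec4a3 have 2 listed starts each, and the window of 1 of them is shown. Capitals mark matches on either strand to GAGGAA (the core bound by PU.1, a myeloid factor) or to TTCNNNGAA (the common STAT motif). They also mark matches to the STAT6-type motif, which is 1 base longer in its middle. The windows are chr6:129472780-129473029 on the minus strand for Clec7a and, on the plus strand, chr6:122952394-122952643 for Clec4a3, chr6:123122440-123122689 for Clec4a2 and chr6:122921598-122921847 for Clec4a1.
Clec7a: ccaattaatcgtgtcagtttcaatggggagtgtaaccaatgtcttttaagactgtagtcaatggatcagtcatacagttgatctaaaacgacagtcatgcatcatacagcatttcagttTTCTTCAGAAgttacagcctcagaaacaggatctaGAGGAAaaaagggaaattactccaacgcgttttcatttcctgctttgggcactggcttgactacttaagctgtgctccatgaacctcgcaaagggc
Clec4a3: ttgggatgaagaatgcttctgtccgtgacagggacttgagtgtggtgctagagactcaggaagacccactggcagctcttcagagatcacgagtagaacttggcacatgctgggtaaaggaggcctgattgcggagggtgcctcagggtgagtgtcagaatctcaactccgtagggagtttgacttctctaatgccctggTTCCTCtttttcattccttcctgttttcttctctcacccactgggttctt
Clec4a2: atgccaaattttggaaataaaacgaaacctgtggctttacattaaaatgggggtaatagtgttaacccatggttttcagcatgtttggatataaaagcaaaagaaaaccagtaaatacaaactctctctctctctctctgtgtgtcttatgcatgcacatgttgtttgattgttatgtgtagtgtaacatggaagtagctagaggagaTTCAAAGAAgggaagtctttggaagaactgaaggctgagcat
Clec4a1: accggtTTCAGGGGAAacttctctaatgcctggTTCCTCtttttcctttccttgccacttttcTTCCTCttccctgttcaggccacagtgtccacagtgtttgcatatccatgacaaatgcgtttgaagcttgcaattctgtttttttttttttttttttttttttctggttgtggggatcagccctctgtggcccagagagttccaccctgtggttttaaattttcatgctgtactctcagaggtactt
The Clec4a1 and Clec4a3 runs share a stretch of 17 bases, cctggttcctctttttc, that holds a GAGGAA match and starts 222 bases before the start of Clec4a1 and 55 before that of Clec4a3. Around it 56 of 68 aligned positions were identical. In Clec4a3 this stretch lies past the annotated gene start at 122952515, and so within the gene, since the listed start stands further in. The Clec7a run has a GAGGAA match 96 bases and a STAT6-type match 131 bases before the start, and the only match in Clec4a2 is to TTCNNNGAA.

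In all 12 short motifs were looked for on both strands in such windows, and some of the motifs overlap each other in their letters. A member counted if any of its listed windows held a match, and Clec4a3 and Clec7a, for example, have 2 windows each. The percentages below are shares of single windows. Counts of members and these percentages are therefore not the same measure, and members with more than 1 window have more places for a match. GAGGAA stood in the windows of 13 of 24 members with an entry, against 23.3% of all 32851 promoter windows of this length, and its longer form GAGGAAGT in none against 2.44%. AAAGNGGAA, another part of the PU.1 consensus, stood in 8 of the 24 against 2.28%. TTCNNNGAA stood in 1 against 7.02%, the STAT6-type motif in 4 against 5.85%, and TTGCNNAA, of the C/EBP type, in 4 against 9.56%. The motif AGATAAG, bound by erythroid factors, stood in none against 2.74%, ACTTCC, of the ETS type, in 3 against 19.7%, CACCC in 11 against 52.0% and TATAA in 12 against 22.8%. An IRF-type motif stood in 2 against 2.98% and an NF-κB-type motif in 1 against 0.356%. These are matches of letters and say nothing of binding, and members that arose by duplication share sequence.

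The uptake receptors of antigen-presenting cells went different ways. Clec10a, the galactose-binding receptor MGL1 of macrophages and dendritic cells, had 2.69 FPKM in the knockout and 9.42 FPKM in wild type after HDM, a level 3.50-fold lower (2.78 to 4.47). Of the 50-base stretches of its transcripts 16.7% also stand in Mgl2, its neighbouring copy, which had 15.7 FPKM in the knockout and 51.1 FPKM in wild type, so reads can be split between them. Clec9a, the receptor DNGR-1 by which cDC1 dendritic cells take up dead cell debris, had 11.7 FPKM in the knockout and 6.93 FPKM in wild type, a difference of 0.67 and a ratio of 1.68 (1.51 to 1.87). It thus lay above 0 where Clec10a lay below, and the level of Clec9a relative to Clec10a was 4.33 in the knockout and 0.736 in wild type. Annotated exons of Clec9a and Clec1b overlap by 184 bases on the same strand. Clec4g, known from liver and lymph node sinus endothelium, had 1.35 FPKM against 1.70 FPKM, and Clec4f, the Kupffer cell receptor, had about 1 read in wild type after HDM and was listed at 0 elsewhere.

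Outside the myeloid group, Clec1a had 58.8 FPKM in the knockout HDM library and 24.8 FPKM in the wild-type HDM library, with 28.1 FPKM after IL-22 and 23.0 FPKM after PBS. Clec1a is expressed by endothelium and binds fungal melanin. Set side by side, with the same limit on values from different tables, the knockout HDM value was the one apart. The HDM difference was 1.21, a level 2.37-fold higher (2.24 to 2.50), 41st from the highest of all measured genes. Clec1b, the platelet receptor CLEC-2 that binds podoplanin, had 4.79 FPKM in the knockout and 6.60 FPKM in wild type, about 54 and 68 reads, a ratio of 0.726 whose interval of 0.498 to 1.05 spans 1. Its ligand gene Pdpn had 110.5 FPKM and 152 FPKM in these libraries, a difference of -0.46.

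Clec2d and Clec3b, which had the highest levels of all members in every library, do not encode immune cell receptors, and neither was called. In wild type after HDM the called gene Clec7a, at 81.1 FPKM, came close to Clec3b. Clec2d, which encodes Clr-b, the broadly expressed ligand of inhibitory NKR-P1 receptors on NK cells, had 132 FPKM in the knockout and 121 FPKM in wild type after HDM, and 115 FPKM after IL-22 and 111 FPKM after PBS. Its 4 values differed little, with an HDM difference of 0.13. Clec3b, the secreted plasminogen-binding protein tetranectin, had 114 FPKM and 82.2 FPKM after HDM, a difference of 0.47, and 184 FPKM and 197 FPKM after IL-22 and PBS. Clec11a, a secreted growth factor of stem cells and bone, had 8.61 FPKM against 10.7 FPKM after HDM. Clec16a, an endosomal protein involved in autophagy rather than a lectin, had 4.69 FPKM and 4.79 FPKM, a ratio of 0.979 (0.882 to 1.08). The other Clr genes were low: Clec2e, Clec2g, Clec2h and Clec2i stayed under 0.5 FPKM in every library, as did the nerve tissue gene Clec2l. Klrb1b, the NKR-P1 receptor of Clr-b, had 4.04 FPKM in the knockout and 4.09 FPKM in wild type. Klrb1c, the NK1.1 antigen of the same receptor family, had 1.99 FPKM and 1.09 FPKM, and neither was called. Clec18a was listed at 0 throughout, where 3 reads would be 0.062 FPKM in the knockout HDM and 0.0678 FPKM in the wild-type HDM library, and the cartilage gene Clec3a never passed 0.0183 FPKM.

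**Figure D2:**
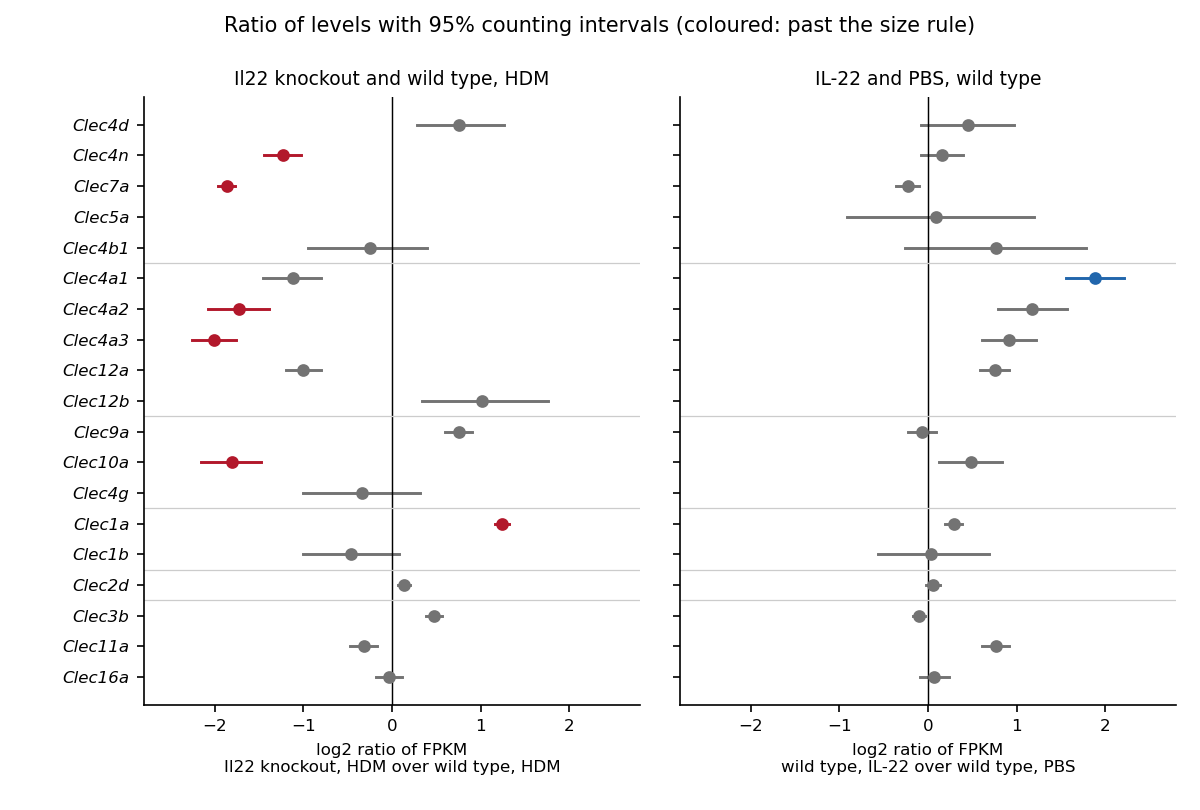
Log2 ratio of FPKM for each measured member with its exact 95% counting interval (knockout over wild type after HDM, left; IL-22 over PBS, right), where colour marks members past the size rule. After HDM 5 coloured members lie left of 0 and Clec1a right of it, while after IL-22 only Clec4a1 is coloured.

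For the 6 called members of the HDM pair the counting interval left out 1, as it did for some smaller differences, but for Clec1b, Clec4b1, Clec4g and Clec16a it spanned 1. In all the interval lay wholly below 1 for 8 measured members and wholly above 1 for 6, and among the 12 members under the filter no interval left out 1. These intervals do not hold the spread between animals. Of the called genes besides Clec10a, Clec4a2 shares 7.98% of its 50-base stretches with other genes and Clec4n 1.01%, while Clec7a, Clec4a1, Clec4a3 and Clec1a share none.

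IL-22 placed in the airways of wild-type mice was compared with PBS to see what the cytokine does without allergen. A single member, Clec4a1, passed the size rule, and the other DCIR genes lay above 0 beside it. Of 17 measured members 1 was higher and none lower, where 0.597% of 13233 measured genes were higher, 0.189% lower and 0.786% called in all. The median of the members was 0.28, against 0.04 over all genes. Clec4a1 had 12.6 FPKM after IL-22 and 3.42 FPKM after PBS, a difference of 1.62 and a level 3.68-fold higher (2.95 to 4.65), 28th from the highest of all genes.

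The 4 measured genes of the DCIR and inhibitory-type group all lay above 0, with a median of 0.83. Clec4a2 had 3.71 FPKM after IL-22 and 1.64 FPKM after PBS, and Clec4a3 12.2 FPKM and 6.48 FPKM. Their differences of 0.83 and 0.82 stand just under the size rule, and with a pseudocount of 0.1 that of Clec4a2 was 1.13. Clec12a had 15.2 FPKM after IL-22 and 9.02 FPKM after PBS, a difference of 0.69. Within the DCIR genes Clec4a1 made up 43.9% of their summed FPKM after IL-22, against 29.3% after PBS, and the share of Clec4a3 was 42.4% against 55.4%. In the HDM pair the largest share was that of Clec4a3, at 56.4% in the knockout and 67.8% in wild type.

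Among the activating receptors the signs were mixed. Clec7a had 18.2 FPKM after IL-22 and 21.3 FPKM after PBS, a ratio of 0.855 (0.781 to 0.935), and Clec4n 14.0 FPKM and 12.5 FPKM, a ratio of 1.12 (0.947 to 1.32). Clec4b1 had 2.29 FPKM after IL-22 and 1.35 FPKM after PBS, a ratio of 1.70 (0.839 to 3.44) from about 31 and 13 reads, and Clec4d 2.90 FPKM and 2.12 FPKM, a ratio of 1.37 (0.947 to 1.96). None of the 5 measured members of this group was called, and 4 lay above 0. Clec10a had 5.44 FPKM after IL-22 and 3.89 FPKM after PBS, Clec9a 8.80 FPKM and 9.19 FPKM, and Clec1a 28.1 FPKM and 23.0 FPKM. Clec11a had 15.1 FPKM after IL-22 and 8.88 FPKM after PBS, a difference of 0.71 and a ratio of 1.70 (1.53 to 1.89).

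Whether both tables were scaled together is not known, and levels from different tables are therefore only set side by side. The knockout HDM library and the PBS library held like levels of several receptors that were high in wild type after HDM. For Clec4a3 the levels were 6.43 FPKM in knockout HDM, 25.8 FPKM in wild-type HDM and 6.48 FPKM with PBS. For Clec4a2 they were 1.56, 5.17 and 1.64 FPKM in the same order, and for Clec7a 22.2, 81.1 and 21.3 FPKM. Clec12a stood at 5.16 FPKM in knockout HDM and 10.3 FPKM in wild-type HDM, beside 9.02 FPKM with PBS.

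Of the 30 members 23 lie on chromosome 6, and many of these stand in a pair of blocks with no other protein-coding gene of the RefSeq annotation (mm10) between them. The DCIR-to-Mincle block (chromosome 6, 122921848 to 123289871) holds 9 members and 3 of the genes lower after HDM. The MICL-to-Dectin-1 block (chromosome 6, 129349783 to 129472785) holds 6 members. In it Clec1a and Clec7a are neighbours separated by 9.59 kb, and one was called higher and the other lower. The level of Clec7a relative to Clec1a was 0.378 in the knockout and 3.26 in wild type after HDM, and 0.648 after IL-22 and 0.925 after PBS.

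**Figure D3:**
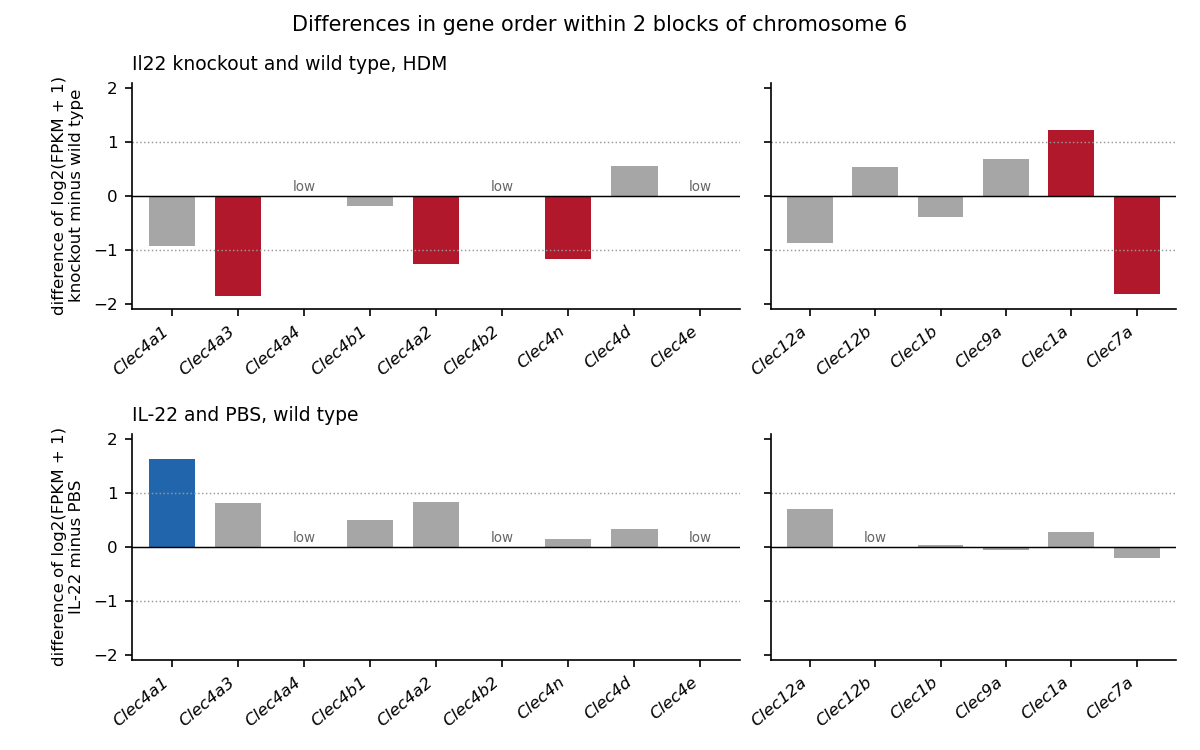
Difference of log2(FPKM + 1) for the members of both chromosome 6 blocks in gene order (knockout minus wild type after HDM, top; IL-22 minus PBS, bottom), with dotted lines at the size rule, colour for called genes and "low" for genes under the filter. Neighbouring genes can differ in sign, as Clec1a at 1.21 and Clec7a at -1.82 show.

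None of the 15 measured adaptor and SYK-CARD9 genes was called after HDM, and 13 lay below 0, with a median of -0.20. Fcer1g, the FcRγ adaptor of Dectin-2, had 90.6 FPKM in the knockout and 165 FPKM in wild type, and Syk 4.94 FPKM and 9.37 FPKM. Malt1, which acts with CARD9 and BCL10, had 5.37 FPKM and 9.70 FPKM. After IL-22 none of the 15 was called either, and Fcer1g had 207 FPKM after IL-22 and 129 FPKM after PBS. Of the 6 inhibitory phosphatase and kinase genes none was called in either pair, with Ptpn6, which encodes SHP-1, at 17.9 FPKM in the knockout and 24.3 FPKM in wild type.

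Of 9 measured cytokine, chemokine and lipid mediator genes that such receptors can switch on, 4 were lower in the HDM-treated knockout and none higher. The median was -0.63, and 2.42% of all measured genes were lower. The lower ones were the chemokine genes Cxcl1, at 1.08 FPKM in the knockout and 11.5 FPKM in wild type, Ccl2, at 1.33 FPKM and 6.70 FPKM, Ccl3 and Ccl4. Ccl4, at 0.961 FPKM and 3.50 FPKM, reached the filter only through wild type. After IL-22 none of the 9 genes measured in that pair was called, a set that lacks Cxcl1 and holds Tnf. Il10 lay under the filter there, at 1.85 FPKM after IL-22 and 0.0452 FPKM after PBS, a difference of 1.45. Many other signals switch these genes on as well.

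Of 23 measured C-type lectin receptors without a Clec symbol 7 were lower and none higher after HDM, the median being -0.62. Of all measured genes 2.42% were lower. Cd209e, a gene of the DC-SIGN family, had 0.419 FPKM in the knockout and 4.31 FPKM in wild type, and Mgl2 had a difference of -1.65. Sele had 0.175 FPKM and 1.90 FPKM. Cd209e and Sele reached the filter only through the wild-type library, which ties their direction to the filter. The low-affinity IgE receptor Fcer2a had 2.69 FPKM and 9.41 FPKM. After IL-22 3 of 21 were higher and none lower, where 0.597% of all measured genes were higher. Cd72, an inhibitory lectin of B cells and macrophages, had 35.0 FPKM after IL-22 and 5.89 FPKM after PBS. Cd209f had 4.44 FPKM and 1.21 FPKM, and Cd209g 3.74 FPKM and 0.849 FPKM. Cd209g reached the filter only through the IL-22 library.

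Markers of cells that can carry these receptors differed as well, not all in the direction of the receptors. Of all measured genes 2.42% were lower after HDM and 0.549% higher. After HDM, 7 of 15 monocyte and interstitial macrophage markers were lower and none was higher, and they had a median of -0.94 and a summed level of 744 FPKM in the knockout and 1082 FPKM in wild type. Of 11 alveolar macrophage markers 3 were lower, namely Itgax, Fabp4 and Mrc1 (median -0.50, summed 486 and 712 FPKM). The other 8 were not called, and 2 of them lay above 0. The cDC2 list had 2 of 6 lower, Mgl2 and Tnfsf9, and a median of -0.67. Mrc1, Mgl2 and Cd209a of these lists are also among the lectin receptors without a Clec symbol, and so are counted in both places. No marker of these 3 lists was listed at 0 in either library. The cDC1 markers had a median of -0.51 with 7 of 8 below 0, among them Batf3 at 2.44 FPKM in the knockout and 7.15 FPKM in wild type, the opposite sign to Clec9a. Blood endothelium markers, beside which Clec1a stands, had 10 of 12 above 0, none called and a median of 0.38, with a summed level of 1017 FPKM in the knockout and 830 FPKM in wild type. Platelet markers had none of 6 called, with 4 above 0, 2 below and a median of 0.42, where Clec1b stood at -0.39. Pf4, the platelet marker with the highest level, had 12.6 FPKM in the knockout and 20.7 FPKM in wild type, the same sign as Clec1b. The summed level of the platelet list was 38.9 FPKM and 41.5 FPKM. Of 5 erythroid genes 4 were higher. Neutrophil markers had 2 of 9 higher, 1 lower and a median of 0.41, and so went different ways. S100a9 had 92.7 FPKM in the knockout and 40.2 FPKM in wild type. Retnlg, the lower gene, had 22.1 FPKM and 79.5 FPKM, the largest difference in size of this list at -1.80. Migratory dendritic cell markers lay below 0 in 6 of 6 genes, 1 of them lower, with a median of -0.48, and T cell markers in 7 of 7, none called, with a median of -0.58. Heart muscle markers were lower in all 7 measured genes and fat cell markers in 3 of 4.

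Of the 15 markers of monocytes and interstitial macrophages 3 passed the size rule upwards after IL-22 and none downwards. Of all measured genes 0.597% were higher. The median of the markers was 0.33, with a summed level of 1323 FPKM after IL-22 and 1087 FPKM after PBS. The highest differences were those of Emr1, the F4/80 antigen, at 23.3 FPKM after IL-22 and 5.21 FPKM after PBS, and of the complement gene C1qb, at 129 FPKM and 56.0 FPKM. For alveolar macrophages 10 of 11 markers lay below 0, none of them lower by the size rule, and the median was -0.18. The remaining marker, Fabp4, was higher, at 175 FPKM after IL-22 and 67.1 FPKM after PBS. The summed level of the list was 584 FPKM and 524 FPKM, a rise that came from Fabp4 alone. Neutrophil markers had none of 10 called and a median of -0.12. Fat cell markers were higher in 4 of 5 genes, with a summed level of 368 FPKM after IL-22 and 165 FPKM after PBS, and smooth muscle markers in 3 of 7. The part of any of these cell markers in the differences of the lectin genes was not tested.

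**Figure D4:**
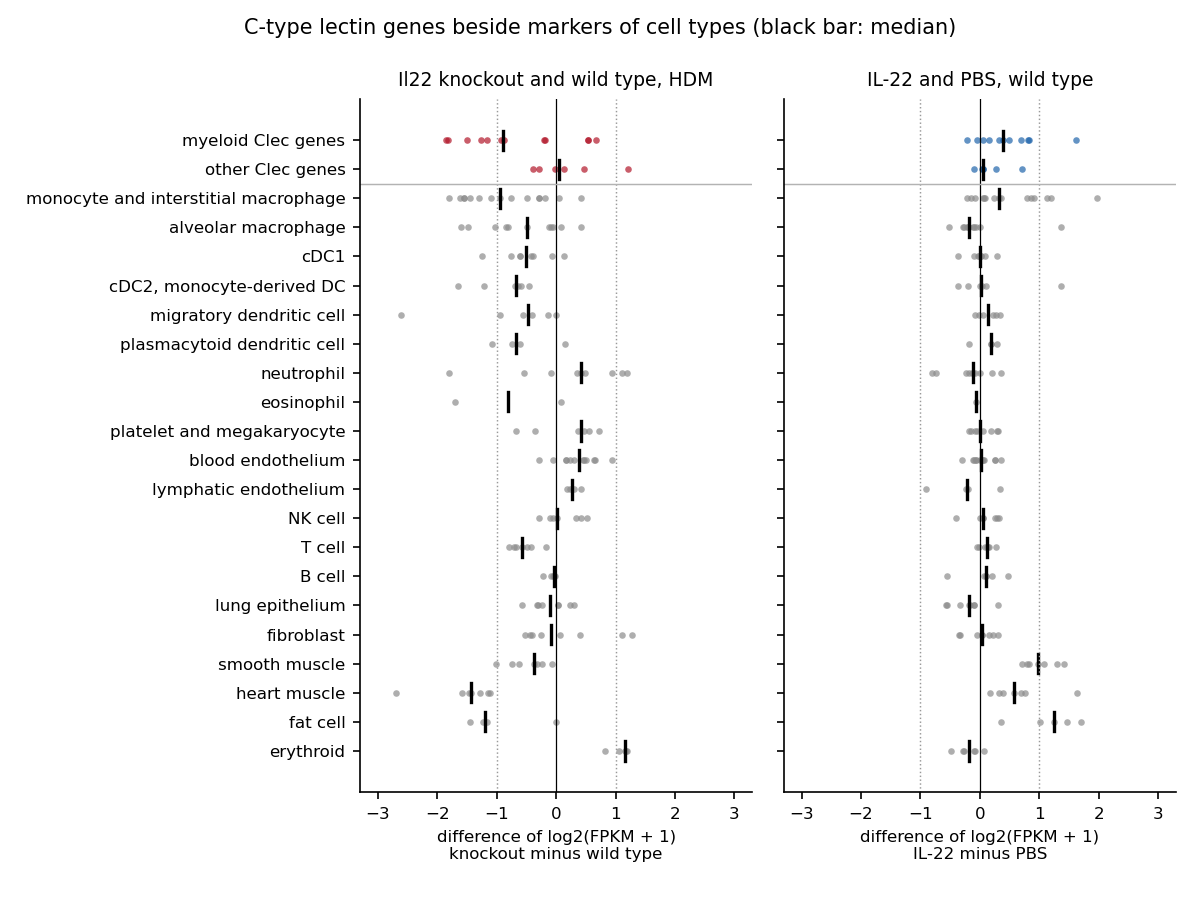
Difference of log2(FPKM + 1) of each measured gene (points) and the median (black bars) for the myeloid and the other Clec genes and for 20 lists of cell type markers, with knockout minus wild type after HDM left and IL-22 minus PBS right. After HDM the median of the myeloid Clec genes was -0.90 and that of the monocyte and interstitial macrophage markers -0.94. The eosinophil median of -0.81 lies between only 2 measured genes, Prg2 at -1.71 and Siglec5 at 0.08. Prg2, at 0.173 FPKM in the knockout and 2.83 FPKM in wild type, reached the filter only through wild type. Siglec5 is also in the alveolar macrophage list. Medians of the marker lists ran from -1.43 for heart muscle to 1.17 for erythroid genes.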

How the data were processed

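Lung RNA of 4 groups was compared, with 1 library per group taken from the sample titles. The authors deposited gene levels as FPKM, with the HDM libraries in a file of their own and the IL-22 and PBS libraries in another. Per the submitters' processing notes the authors used CASAVA 1.8.2, TopHat2, Cufflinks 2.2.1 and the build mm10. Settings, and how libraries were scaled to each other, are not given in those notes.

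The tables were joined on symbol and accession (23746 rows), and rows of 1 symbol were added, which left 23284 genes. No member had a second row. Differences are log2(FPKM + 1) of the knockout minus wild type and of IL-22 minus PBS, over genes whose mean FPKM in the pair reached 1. Depth came from the steps of low values, with GENCODE M21 transcript lengths less 200 bases. Of 1049 low rows used, 745 lay within 15% of the common value. Read numbers are therefore estimates, and a wrong transcript length or shared reads would shift them. Interval bounds are exact binomial. Shared sequence was counted as 50-base stretches found in transcripts of another gene.

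All members were accounted for, and up to 4 genes of each list, those with the largest differences, could be named. The members and lists were chosen with earlier results of these data known. The steps were tested on simulated data. Alternatives were a pseudocount of 0.1, other scalings, filters and a size rule of 1.5. Python 3.11.15, numpy 2.4.6, pandas 2.3.3, scipy 1.17.1, Biopython 1.88 and matplotlib 3.10.9 were used.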

Additional observations from a re-analysis of the deposited data

How the results depend on the processing

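Under the alternatives the number of called members in the HDM pair, 6 as reported, was 5 to 7, except that a size rule of 1.5 left 2 (Clec4a3 and Clec7a) and leaving out the members that share 50-base stretches with other genes, an alternative chosen after seeing the data, left 3 (Clec4a3, Clec7a and Clec1a). The HDM median of the members was -0.25, -0.0913 without a filter and -0.64 at a mean FPKM of at least 5. In the IL-22 pair 1 member was called, and 2 with a pseudocount of 0.1. The IL-22 median was 0.28, 0.38 after scaling to a common total, which moved the median of all genes by 0.10, and 0.0528 without a filter. Of single members, Clec4a1 after HDM (-1.10) and Clec4a2 after IL-22 (1.13) passed the size rule with a pseudocount of 0.1, and the other 33 differences of measured members stayed on their side of it under that and both scalings. Of 13285 measured genes a pseudocount of 0.1 called 131 higher and 488 lower after HDM, against 73 and 322. A size rule of 1.5 called 25 higher and 126 lower of these genes. After IL-22 a pseudocount of 0.1 called 132 higher and 34 lower of 13233 genes, against 79 and 25. No paired analysis was possible because each group has 1 library and the titles carry no replicate numbers. The spread between animals was not measured, so these values compare libraries. At this depth members of a few reads could not be compared: for Clec2e, with about 3 reads in the knockout and 7 in wild type, the interval of the ratio ran from 0.0654 to 1.72.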
